A study of Rattus norvegicus with 8 samples.

Results

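Genes of pre-mRNA splicing factors and heterogeneous nuclear ribonucleoproteins (hnRNPs) were examined in the liver of rats fed a high phosphorus diet. A gene was taken when the array annotation gave its probe set a single symbol that begins with Snrp, Srsf and a digit, Sf3a, Sf3b, Hnrnp, Prpf or U2af, which gave 61 genes on 100 probe sets. A gene counted as measured when a probe set of it spanned at least 0.05 (log2) over the 8 arrays, and the brightest such probe set stands for it. This left 25 measured genes of the 61, on 28 probe sets, among 2808 measured genes of 14217 on the array. The rule uses the symbol and the span over all 8 arrays, which also takes in any difference between the diets.

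Male Wistar rats of 8 weeks were compared in 2 groups of 4. After 7 days of acclimatization from 4 weeks of age, one group received the control diet, based on AIN-93G with 0.3% phosphorus. The HP group received the same base diet with 1.2% phosphorus, and each diet was fed for 24 days. Total RNA of each liver was hybridised to 1 Affymetrix array, so each value below is of 1 animal. Whole liver was used, so fewer cells of a type and less RNA per cell cannot be told apart.

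In the nucleus, introns are removed from pre-mRNA by the spliceosome, which is assembled from small nuclear ribonucleoproteins (snRNPs) and many further proteins. Sm proteins (the Snrpb and Snrpd genes) form a ring on most of the snRNAs. U2AF and the SF3a and SF3b complexes recognise the 3' end of the intron. Several Prpf proteins act in the tri-snRNP and at the catalytic centre. SR proteins (the Srsf genes) bind exonic enhancers and mostly favour exon inclusion, whereas hnRNPs coat nascent RNA and often, though not always, repress splice sites. The liver expresses these factors as general housekeeping components, and their relative amounts set alternative splicing.

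The 5 members called by the rank products method described below are shown first by their promoters, so that 4 genes with a lower value in HP rats and 1 with a higher value can be set side by side. The sequences are the 250 bases before a listed start (RefSeq, build GRCr8), written 5' to 3' on the strand of the gene, at chr2:199250339-199250588 (minus strand) for Prpf38b, chr5:149345288-149345537 (plus) for Srsf4, chr10:35194383-35194632 (plus) for Hnrnph1, chr10:36363899-36364148 (minus) for Hnrnpab and chr17:6512879-6513128 (plus) for Hnrnpa0. Capitals mark, on either strand, the letters of the GC box (GGGCGG), the CCAAT box (CCAAT), the ETS core (CCGGAAG), the E-box (CACGTG), the TATA box (TATAAA), the CRE (TGACGTCA) and the NRF1 site.
Prpf38b: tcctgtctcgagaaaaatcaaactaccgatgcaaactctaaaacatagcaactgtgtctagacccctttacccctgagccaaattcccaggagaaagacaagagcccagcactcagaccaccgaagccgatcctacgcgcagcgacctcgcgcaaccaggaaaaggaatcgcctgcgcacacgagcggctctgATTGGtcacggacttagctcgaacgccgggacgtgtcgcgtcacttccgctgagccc
Srsf4: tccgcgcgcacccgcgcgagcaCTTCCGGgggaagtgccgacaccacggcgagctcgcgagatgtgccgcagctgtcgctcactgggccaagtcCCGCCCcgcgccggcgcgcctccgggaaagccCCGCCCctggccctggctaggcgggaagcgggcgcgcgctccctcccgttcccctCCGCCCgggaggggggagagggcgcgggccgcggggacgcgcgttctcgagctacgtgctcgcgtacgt
Hnrnph1: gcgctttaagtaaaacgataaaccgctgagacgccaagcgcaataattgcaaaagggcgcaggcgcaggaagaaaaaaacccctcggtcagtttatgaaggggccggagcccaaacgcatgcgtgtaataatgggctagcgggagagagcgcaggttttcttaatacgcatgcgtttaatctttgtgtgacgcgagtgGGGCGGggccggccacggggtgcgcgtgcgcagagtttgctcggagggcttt
Hnrnpab: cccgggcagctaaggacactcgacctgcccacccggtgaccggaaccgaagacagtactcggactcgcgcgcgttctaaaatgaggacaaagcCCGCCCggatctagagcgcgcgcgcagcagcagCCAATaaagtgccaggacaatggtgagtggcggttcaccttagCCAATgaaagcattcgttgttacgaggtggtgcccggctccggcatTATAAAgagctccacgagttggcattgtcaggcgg
Hnrnpa0: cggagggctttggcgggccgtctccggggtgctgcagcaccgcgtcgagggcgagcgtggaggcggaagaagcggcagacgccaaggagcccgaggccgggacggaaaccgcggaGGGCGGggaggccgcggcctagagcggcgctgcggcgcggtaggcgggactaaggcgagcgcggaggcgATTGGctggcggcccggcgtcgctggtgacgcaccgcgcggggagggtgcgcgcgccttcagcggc
Among 26 promoters of the 25 members, 19 (73.1%) held the GC box, against 30.5% of all 33469 promoters of the same length and 38.9% of the protein-coding ones. The CCAAT box stood in 17 (65.4%), against 34.0% of all promoters, and the ETS core in 5 (19.2%), against 7.27%. The E-box was in 4 (15.4%; all promoters 5.59%), the TATA box in 5 (19.2%; 12.9%), the CRE in 1 (3.85%; 1.59%) and the NRF1 site in 0 (0.762% of all promoters). In protein-coding promoters the shares of the E-box, TATA box, CRE and NRF1 site were 6.16%, 12.1%, 1.89% and 0.971%. The GC content of the member promoters had a median of 59.8% (46.8% to 77.2%), against 51.2% over all and 54% in protein-coding promoters. Their median number of CpG was 21.5, against 5 over all and 8 in protein-coding promoters. Of the 5 printed promoters, Srsf4 and Hnrnpa0 were the most GC-rich at 77.2%. That of Hnrnph1 precedes a listed start inside the span of the gene (chr10:35187412-35203909). Some other counted promoters, such as those of Srsf5 and Prpf4b, also lie inside their genes. Prpf38b, with a lower value in HP rats, and Hnrnpa0, with a higher one, both held a CCAAT box. A match describes letters only and is no evidence that a factor binds.

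All 8 arrays had a median of 6.65, and the deposited log2 values ran from 5.35 to 14.53. Over the spanning probe sets alone, the median was 8.81, 8.77, 8.81 and 8.78 in control rats 1 to 4. In HP rats 1 to 4 it was 8.79, 8.76, 8.77 and 8.76. Every pair of arrays correlated with r from 0.968 to 0.992 across the spanning probe sets, which are no independent replicates, and no array was set aside. Of the hepatocyte markers, 5 of 9 on the array were measured, 1 of them (Cps1) was called lower by rank products, and their mean level was 12.8 to 12.9 (log2) in control rats and 12.8 in each HP rat. For the markers of other cells, 4 of 7 of sinusoidal endothelium were measured and 2 of them (Stab2 and Kdr) were called higher by rank products (mean level 9.46 to 9.60 in control and 9.58 to 9.75 in HP rats). Of 11 Kupffer cell and macrophage markers 10 were measured, 0 were called and 9 had a negative difference (8.67 to 9.05 against 8.65 to 8.86), and of 12 stellate cell markers 7 were measured and 0 called (8.09 to 8.28 against 8.20 to 8.30). Of the 3 erythrocyte markers on the array only Hbb was measured, with a log2 difference of 0.24 (called higher by rank products), and of the 11 for dividing cells 2 were measured and 0 called. None of 5 cholangiocyte or 8 lymphocyte markers was measured. Over all measured genes, rank products called 8.48% higher and 9.69% lower, and 54.7% had a negative difference. No marker was called by limma, described below. The part of these markers in the results was not tested.

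Most of the 25 genes were a little lower in HP rats than in control rats. The difference (HP minus control, log2) was negative in 20 of 25 genes, where 54.7% of all measured genes had a negative difference. Its median was -0.11 and its range -0.26 to 0.16, against a median of -0.01 over the 2808 genes, of which 22.7% lay at or below the member median. The 5 genes with a positive difference were Hnrnpa0, Sf3b5, Prpf39, Hnrnpa1 and Srsf1, and only in Hnrnpa0 did it exceed 0.04. By family the medians were -0.07 for 4 Prpf genes, -0.11 for 3 SF3b and U2AF genes, -0.10 for 6 SR genes, -0.11 for 2 Sm ring genes and -0.09 for 10 hnRNP genes. Centring the arrays on their spanning probe sets moved the member median to -0.09 and that of all genes to 0.01.

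None of these differences passed limma, the moderated linear model across the 4155 spanning probe sets with Benjamini-Hochberg adjustment. It called 0 of 25 members in either direction and 0.0% of all measured genes in each direction, and the smallest adjusted p of a member was 0.298, for Hnrnph1. At an unadjusted limma p under 0.05, 6 of 25 members (24.0%) were lower in HP rats, where the same limit took 6.3% of all genes, and 0 were higher, where it took 5.77%. The 6 were Prpf38b, Srsf2, Srsf4, Hnrnph1, Hnrnpab and Hnrnpc. After centring, this split became 5 lower and 1 higher, and after quantile normalization 4 and 1. It came to 3 lower without HP rat 4, to 3 lower and 1 higher without control rat 3, and to 7 lower and 1 higher without control rat 2.

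The rank products method (RP), which the authors applied to these arrays, ranks the 16 differences between an HP and a control array over all probe sets and takes an FDR under 0.05. It called 4 of 25 members lower (16%; 9.69% of all measured genes), namely Prpf38b, Srsf4, Hnrnph1 and Hnrnpab, and 1 higher, Hnrnpa0 (4.0%; 8.48%). When RP was run over the spanning probe sets alone, it called 0 members. The 4 lower calls came to 1 without control rat 1 and to 0 without control rat 2, 3 or 4, and the higher call was lost without control rat 4 and without any 1 HP rat. The values of the diets did not overlap in 1 gene that was lower, Prpf38b (4.0%; 3.53% of all measured genes), and in 1 that was higher, Hnrnpa0 (4.0%; 3.6%). The lower count was 7 without control rat 2, 4 without HP rat 1 or HP rat 2, 3 without HP rat 3 and 2 without control rat 1 or control rat 3. With 1 rat left out, separation of the diets is easier for any gene. The share of all measured genes was not taken there, so these counts have no background.

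**Figure D1:**
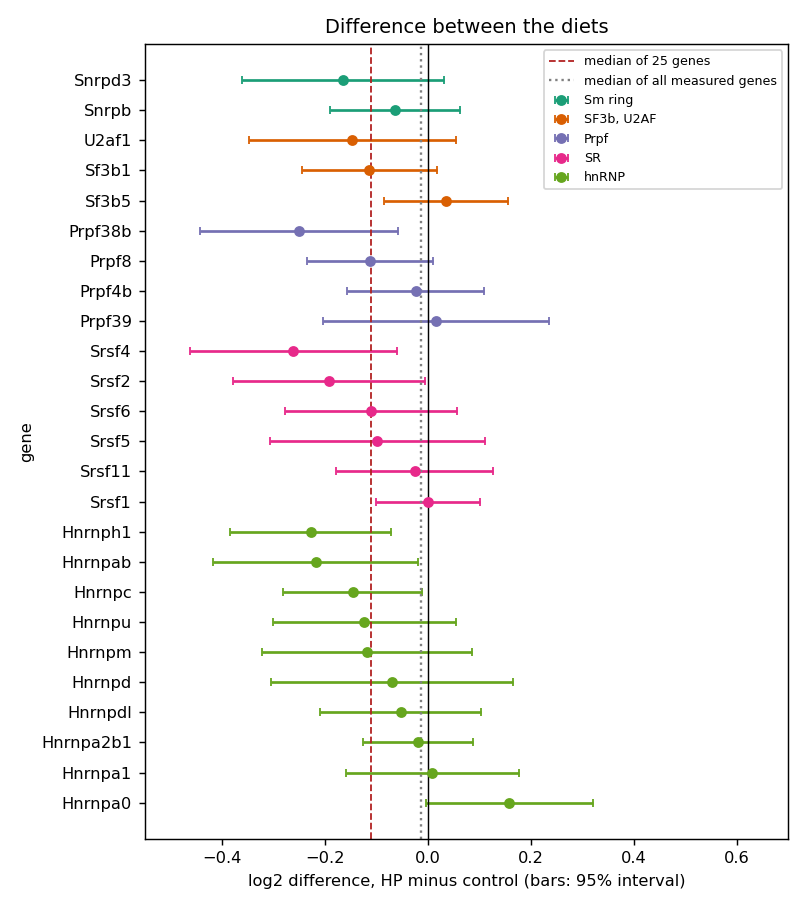
Difference between the diets (HP minus control, log2, horizontal axis) of the 25 genes, coloured by family, with bars for the 95% interval from limma. Points of 20 genes lie left of 0. The dashed line marks the median of all 25 genes of -0.11 and the dotted line the median of all measured genes of -0.01.

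The plot of differences by gene shows how close the intervals of most members come to one another. The standard errors ran from 0.0446 to 0.104, and 6 intervals, all below 0, left out 0. The interval of Hnrnpa0, from -0.0047 to 0.32, just held it.

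The Sm ring is the core of most spliceosomal snRNPs. Snrpd3, a ring subunit, read 8.84, 8.97, 8.89 and 9.03 in control rats and 8.77, 8.94, 8.81 and 8.56 in HP rats. HP rat 4 lay lowest and HP rat 2 lay above control rats 1 and 3, so the diets overlapped. The difference was -0.17 ± 0.0865 (SE, n = 4 per diet; limma, adjusted p = 0.444), and it was -0.10 without HP rat 4. Snrpb, which encodes the B ring protein, differed by -0.06 ± 0.0553 (SE) with overlapping values, and by -0.04 without control rat 3. Snrpd1, Snrpd2, Snrpe, Snrpf and Snrpn were not measured, nor were Snrpa, Snrpa1 and Snrpb2 of the U1 and U2 snRNPs.

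U2AF and SF3b recognise the intron's 3' end and branch point. U2af1, the small U2AF subunit that contacts the AG at the 3' splice site, read 9.17, 8.98, 9.13 and 8.89 in control rats and 9.07, 8.77, 8.92 and 8.82 in HP rats. Control rat 4 lay below HP rats 1 and 3, and the diets overlapped, with a difference of -0.15 ± 0.0884 (SE; limma, adjusted p = 0.494). Sf3b1, the largest subunit of SF3b, read 8.99, 8.97, 8.98 and 9.11 in control and 8.97, 8.87, 8.85 and 8.90 in HP rats. Only HP rat 1 reached the control values, and the difference was -0.11 ± 0.0582 (SE; limma, adjusted p = 0.437). Sf3b5, a small SF3b subunit, differed by 0.04 ± 0.0531 (SE), and by 0.01 without HP rat 2. The other 9 genes of this family, among them U2af2, all of SF3a, Sf3b2, Sf3b3, Sf3b4 and Sf3b6, were not measured.

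Among the Prpf genes, Prpf38b stood apart from the rest by its size. It encodes a protein related to the spliceosome component PRP38. It read 7.63, 7.69, 7.66 and 7.86 in control rats and 7.54, 7.41, 7.36 and 7.52 in HP rats. Every HP rat lay below every control rat, with control rat 4 highest. The means were 7.71 ± 0.101 and 7.46 ± 0.0876 (SD, n = 4), which is 0.841 of the control level, and the difference was -0.25 ± 0.0845 (SE; limma, unadjusted p = 0.0161, adjusted p = 0.332). By RP it fell in HP rats (FDR = 0.0185), and it stayed under the FDR limit in 10 of 14 alternatives. The 2 other Prpf38b probe sets, of which one is brighter, were almost constant and spanned 0.00037 and 0.0005.

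Prpf8, the large protein at the heart of the catalytic spliceosome, read 9.96, 10.05, 10.14 and 9.99 in control and 9.92, 9.97, 9.87 and 9.94 in HP rats. HP rat 2 just passed control rat 1, and the difference was -0.11 ± 0.0541 (SE; limma, adjusted p = 0.416). Prpf4b, a kinase that acts on spliceosomal proteins, differed by -0.02 ± 0.0585 (SE), and by -0.000229 without control rat 4. Prpf39, related to a U1 snRNP factor, differed by 0.02 ± 0.0968 (SE), its values running from 8.06 to 8.44 in control and from 8.13 to 8.40 in HP rats, and without control rat 2 its difference was -0.05. Prpf3, Prpf4, Prpf6, Prpf18, Prpf19, Prpf38a and Prpf40b were not measured.

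SR proteins gave the largest difference of the 25 genes. Srsf4, one of the larger SR proteins, read 9.81, 9.68, 9.59 and 9.77 in control and 9.41, 9.62, 9.54 and 9.24 in HP rats. HP rat 4 was lowest, and HP rat 2 stood just above control rat 3. The means were 9.71 ± 0.0971 and 9.45 ± 0.165 (SD, n = 4), 0.834 of the control level, and the difference was -0.26 ± 0.0890 (SE; limma, unadjusted p = 0.0168, adjusted p = 0.332). By RP it fell (FDR = 0.0219), and this held in 9 of 14 alternatives.

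Srsf2, an SR protein that binds exonic enhancers, read 10.47, 10.27, 10.58 and 10.55 in control and 10.29, 10.33, 10.36 and 10.11 in HP rats. Control rat 2 lay below HP rats 1, 2 and 3, and the other control rats lay above every HP rat. The difference was -0.19 ± 0.0826 (SE; limma, unadjusted p = 0.0455, adjusted p = 0.387), with an RP FDR of 0.0695. Its second, dimmer probe set gave -0.19 ± 0.0781 (SE) and an FDR of 0.0416. Srsf6 and Srsf5, which differed by -0.11 ± 0.0733 and -0.10 ± 0.0921 (SE), were both highest in control rat 1, and their control values covered most of the HP range. Without control rat 1 these differences were -0.0520 and -0.0492.

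Srsf1, the founding SR protein, differed little between the diets on its brighter probe set, which spanned 0.0600 over the 8 arrays and just met the limit. It read 9.49, 9.48, 9.51 and 9.54 in control and 9.503, 9.53, 9.49 and 9.49 in HP rats, and the difference was 0.000384 with a 95% interval of the difference of -0.10 to 0.10. The second probe set of Srsf1 spanned 0.309 and gave -0.02 ± 0.0833 (SE), the opposite sign. Srsf11 gave -0.03 ± 0.0671 on one probe set and -0.15 ± 0.0859 (SE) on the other, both negative. The first was 0.02 without control rat 4. Srsf3, Srsf7, Srsf9 and Srsf10 and a pseudogene of Srsf7 were not measured.

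**Figure D2:**
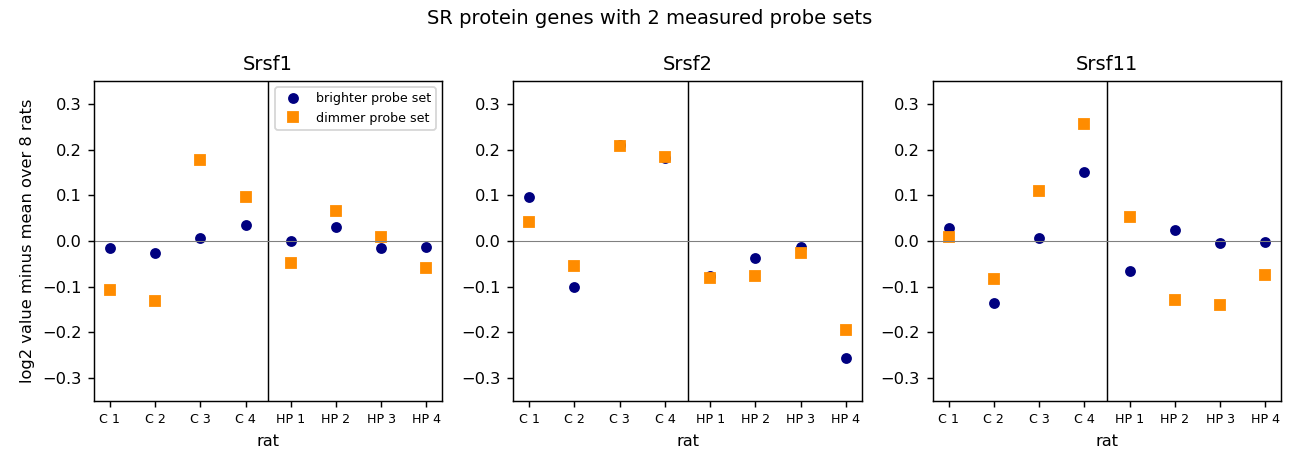
Log2 value minus the probe set's mean over 8 rats (vertical axis) in each control (C) and HP rat for the 3 SR genes with 2 measured probe sets, with circles for the brighter and squares for the dimmer probe set. Both Srsf2 probe sets are highest in C 3 and lowest in HP 4, whereas those of Srsf1 differ in span (0.0600 and 0.309).

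The plot of the paired probe sets shows that the rats ranked alike on both probe sets of Srsf2 and less so on those of Srsf1 and Srsf11. In Srsf11 the dimmer probe set put HP rats 2, 3 and 4 below the mean over all rats, where the brighter one put them near it.

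Of the hnRNP genes, 8 of 10 had a negative difference. Hnrnph1, which binds G-rich runs and can silence or enhance exons, read 10.48, 10.33, 10.54 and 10.52 in control and 10.38, 10.13, 10.23 and 10.21 in HP rats. The diets overlapped through control rat 2 and HP rat 1 alone. The means were 10.47 ± 0.0920 and 10.24 ± 0.105 (SD, n = 4), 0.854 of the control level, and the difference was -0.23 ± 0.0688 (SE; limma, unadjusted p = 0.00922, adjusted p = 0.298). By RP it fell (FDR = 0.0296), and this held in 7 of 14 alternatives.

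Hnrnpab, an RNA-binding protein of the A/B type, read 10.29, 10.30, 10.62 and 10.47 in control and 10.12, 10.27, 10.32 and 10.09 in HP rats. HP rat 3 lay above control rats 1 and 2, and control rat 3 was highest. The difference was -0.22 ± 0.0879 (SE; limma, unadjusted p = 0.0354, adjusted p = 0.372), 0.860 of the control level, and by RP it fell (FDR = 0.0404), in 6 of 14 alternatives also. Hnrnpc, which binds uridine-rich tracts of nascent RNA, read 9.91, 9.81, 10.03 and 9.88 in control and 9.79, 9.74, 9.81 and 9.70 in HP rats. Control rat 2 and HP rat 3 met at 9.81, the other values were apart, and the difference was -0.15 ± 0.0593 (SE; limma, unadjusted p = 0.0361, adjusted p = 0.375; RP FDR = 0.0648).

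Hnrnpa0, an hnRNP of the A/B family, ran the other way. It read 10.36, 10.47, 10.46 and 10.16 in control and 10.55, 10.51, 10.48 and 10.54 in HP rats. Every HP rat lay above every control rat, the nearest pair being control rat 2 and HP rat 3, and control rat 4 was far below the rest. The difference was 0.16 ± 0.0716 (SE; limma, unadjusted p = 0.0556, adjusted p = 0.399), 1.12 times the control level, and it was 0.09 without control rat 4. By RP it rose (FDR = 0.0329), in 7 of 14 alternatives also. The SD was 0.145 in control and 0.0303 in HP rats.

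Of the other hnRNP genes, Hnrnpu, a scaffold-attachment protein, differed by -0.12 ± 0.0783 and Hnrnpm by -0.12 ± 0.0900 (SE). Hnrnpu was at -0.07 without control rat 1, and Hnrnpm at -0.06 without control rat 3. Hnrnpd, also known as AUF1 and a regulator of mRNA decay, differed by -0.07 ± 0.104, and its control values ran from 7.59 to 8.00, so that the difference was -0.15 without control rat 2 and -0.01 without control rat 3. Hnrnpdl, Hnrnpa2b1 and Hnrnpa1, the last a classic repressor of splice sites, differed by -0.05, -0.02 and 0.01, each less than its standard error. Without control rat 2 Hnrnpa1 was at -0.03, without HP rat 2 Hnrnpdl was at -0.01, and without control rat 4 Hnrnpa2b1 was at -0.00762. Hnrnpa2b1 spanned 0.0725, close to the limit. Hnrnpa3, Hnrnpf, Hnrnph3, Hnrnpl, Hnrnpll, Hnrnpr and Hnrnpul1 were not measured.

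**Figure D3:**
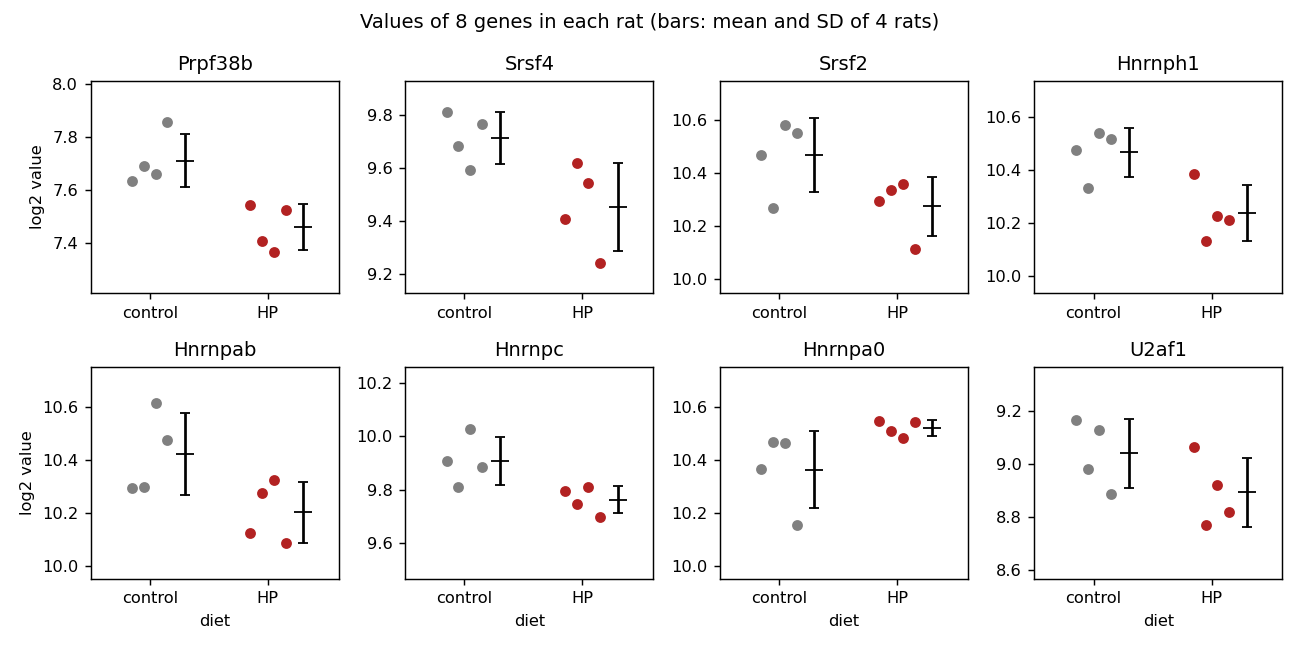
Log2 values (vertical axes, each with its own range) of 8 genes in 4 control (grey) and 4 HP (red) rats, with the mean and SD of each diet. The diets do not overlap in Prpf38b, lower in HP rats, and Hnrnpa0, higher in HP rats, and in the other 6 genes at least 1 rat of each diet overlaps.

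The strips of single genes show that HP rats clustered closely in Hnrnpa0 and Hnrnpc and spread widely in Srsf4. Over the 25 genes, the median SD was 0.101 in control and 0.0802 in HP rats. The SD was larger in control rats in 21 of 25 genes, where this held for 68.8% of all measured genes.

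The rats did not share the shift evenly. The median deviation of the 25 genes from their own means was 0.03, -0.02, 0.04 and 0.10 in control rats 1 to 4 and -0.02, -0.04, -0.02 and -0.06 in HP rats 1 to 4, and for all genes it lay between -0.01 and 0.03. Control rat 2 lay close to the HP rats, with 17 of 25 genes below their own mean, against 9, 4 and 4 in the other control rats and 15 to 22 in HP rats. The highest value was in a control rat in 23 of 25 genes (92%; 62.1% of all measured genes), most often in control rat 4 (10 genes) and control rat 3 (8 genes). The lowest was in an HP rat in 16 of 25 genes (64%; 44%), and in control rat 2 in 7.

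**Figure D4:**
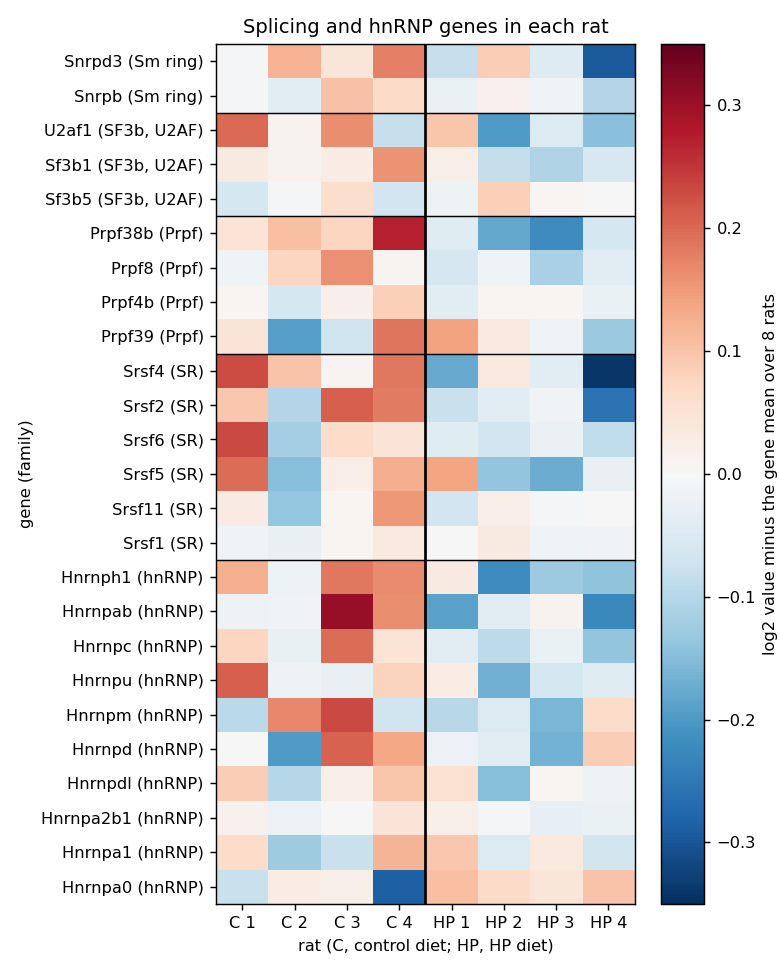
Log2 value of each of the 25 genes in each rat, minus the mean of the gene over 8 rats (colour, red above and blue below). Columns are control (C) and HP rats and rows are grouped by family. Most cells are red in C 4 and blue in HP 4, C 2 has 17 genes below their mean, and the row of Hnrnpa0 runs against most others.

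The heat map of all members shows that several SR genes were high and low in the same rats. With the diet means taken out, the median Pearson's r between members over the 8 arrays was 0.25 (300 pairs, 65% above 0), 0.38 among the SR genes (15 pairs) and 0.17 among the hnRNP genes (45 pairs), against 0.01 over all measured genes. These pairs share the same 8 arrays, and the values are a description.

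The other genes of the pathway were taken from lists, with the members left out. Of 189 listed genes in 8 groups, such as U snRNP proteins, LSm proteins, helicases and SR-protein kinases, 171 were on the array and 34 were measured. The difference was negative in 19 of 34, with a median of 0.00, against -0.11 for the 25 members, and limma called 0. RP called 3 of 34 lower, where it called 9.69% of all measured genes, and 1 higher, where it called 8.48%. An unadjusted limma p under 0.05 took 3 lower (Dhx9, Ddx5 and Scaf11), against 6.3% of all genes, and 1 higher (Celf1), against 5.77%; Ddx5 and Celf1 were named after their values were seen. The 3 lower RP calls were Dhx9, an RNA helicase, at -0.27 ± 0.109 (SE), Scaf11, an SR-related protein, at -0.23 ± 0.0992 (SE), and Taf15, an RNA-binding protein, at -0.25 ± 0.153 (SE). The calls held in 4 of 14 alternatives for Dhx9, 9 for Scaf11 and 5 for Taf15, whose difference was -0.39 without HP rat 1. Son, a large protein of nuclear speckles, was called higher at 0.22 ± 0.0981 (SE), in 9 of 14 alternatives also. The diets did not overlap in 1 of 34 genes that was higher (Son), against 3.6% of all measured genes. They did not overlap in 1 of 34 that was lower (Scaf11), against 3.53%. The remaining groups had their largest differences in U2surp (-0.12), Lsm8 (0.01), Wdr77 (-0.16), Wbp4 (-0.13) and Magoh (-0.03), none of which was called. Whether the members and these genes differ as groups was not tested.

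The 36 genes without a measured probe set gave no comparison, so the 25 are those with signal that varied over these arrays. A larger share of these genes was measured (41%) than of all genes on the array (19.8%). The largest spans outside the limit were 0.0261 for Snrpf, 0.0115 for Prpf19 and 0.0108 for Hnrnpa3, and the smallest inside it were 0.0600 for Srsf1, 0.0725 for Hnrnpa2b1 and 0.143 for Prpf4b. In 5 members (Hnrnpa2b1, Hnrnpu, Prpf38b, Prpf4b and Sf3b1) a brighter probe set was almost constant, and a member had a single probe set in 14 of 25.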

How the data were processed

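The authors quantified the arrays with FARMS (Factor Analysis for Robust Microarray Summarization), and the deposited values are log2 expression per probe set; R 2.13.1 is named in the submitters' processing notes. FARMS leaves a probe set without shared probe signal almost constant. How arrays were normalized to one another: not given in the sources used here. None was added. Symbols came from the platform annotation, which may be old, and 8 probe sets with several symbols were not named. Members and lists were chosen with earlier results of these data known. limma 3.58.1 (R 4.3.3, statmod 1.5.0; trend, robust) was fitted to 4155 probe sets spanning 0.05 or more, two-sided, Benjamini-Hochberg. RP used all 31099 probe sets and 1000 permutations of values within arrays (Python 3.11.15, numpy 2.4.6, pandas 2.3.3; figures, matplotlib 3.10.9). Both were tested on simulated data, with independent noise and differences larger than that of any member. That test does not show what either method detects at the sizes seen here. The limma p-values weigh each difference against the spread between 4 rats per diet, moderated across probe sets. The FDR of RP comes from permuted values within arrays and does not use that spread directly. The number of arrays limits precision. Promoters were RefSeq GRCr8, and all 25 members matched. Genes were named when called by limma or RP, at an unadjusted p under 0.05 or without overlap; also the 2 largest differences and the widest span per family, the 3 spans either side of the limit, genes whose probe sets differed in sign, and the leading gene of each other list. Alternatives were a span of 0.2 or none, centring, quantile normalization, leaving out the dimmest 25%, plain empirical Bayes, a replicate block, RP over spanning probe sets, the mean of probe sets, and leaving out each rat. The count of negative differences was added after seeing the data.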

Additional observations from a re-analysis of the deposited data

Results flagged for a closer look

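Sf3b1 in control rat 4 read 9.113 (log2), far above the other 3 control rats. Its gap to the nearest control rat was 0.874 of the range of the 4, above Dixon's limit for 4 values. Of 50 groups of 4 tested (25 genes, 2 diets) this was 1, and chance flags about 1 in 20.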

How the results depend on the processing

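limma called 0 members under every alternative, with the smallest member adjusted p between 0.161 and 0.519. The genes lower by RP came to 2 (dimmest 25% left out), 0 (spanning probe sets only), 7 (replicate block) and 6 (mean of probe sets). They came to 3 of 61 with no span filter and to 0 to 5 with 1 rat left out. Those higher came to 0 with the dimmest 25% left out and over spanning probe sets only, and to 0 to 1 with 1 rat left out. Genes lower without overlap were 2 after centring, 2 after quantile normalization, 2 of 61 with no span filter, and 1 to 7 with 1 rat left out. Those higher were 2 of 61 with no span filter. The shares of all genes called by RP or without overlap were not taken under these alternatives. Without the span filter, which adds 36 almost constant genes by construction, the median difference was -7.96e-05 and 40 of 61 genes were negative. With 1 rat left out the median ran from -0.13 to -0.08, the negative count from 19 to 23 and the count at an unadjusted p under 0.05 from 3 to 8.

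The labels link the same-numbered control and HP rats by a number only. Their deviations correlated at 0.48, 0.03, -0.12 and -0.20, those of other pairs at -0.48 to 0.51, and not every rat correlated best with its own number. Whether same-numbered rats shared a batch cannot be told from these values. With the replicate block 5 members had an unadjusted limma p under 0.05 and limma called 0.

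Of the 25 members 20 kept their sign under every alternative that gave a value, and of 11 other named genes 7 did. With no span filter the value of 4 of the 20, Prpf38b (-0.000152), Sf3b1 (-0.000143), Prpf4b (-7.96e-05) and Hnrnpu (-8.8e-05), and that of Scaf11 (-0.000138) came from almost constant probe sets. At a span of 0.2, 3 members (Hnrnpa2b1, Prpf4b and Sf3b5) had no value. The sign turned for Hnrnpa2b1 (0.00147 after centring, 0.000248 with no span filter), Son (-0.000178) and U2surp (8.37e-05, both with no span filter), Srsf1 (-0.0176 at a span of 0.2, -0.00863 for the mean of probe sets, and -0.00962 to 0.0119 with 1 rat left out), Hnrnpa1 (-0.0308 to 0.05 with 1 rat left out), Prpf39 (-0.0461 to 0.0808 likewise), Srsf11 (0.0209 without control rat 4), Lsm8 (-0.0324 to 0.0622 with 1 rat left out) and Magoh (-0.0924 to 0.0236 likewise). The cause was not tested. The 4 rats per diet limit what could be detected, and probe sets that FARMS holds constant carry no difference. These were not all dim: a probe set of Hnrnpa3 averaged 10.78 (log2) and spanned 0.00018.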
